A study of Mus musculus with 22 samples.

Results

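Mesothelial genes of visceral fat are 10 genes that mark the thin epithelial sheet covering the epididymal fat pad: Upk3b, Wt1, Msln, Krt8, Krt18, Krt19, Lrrn4, Upk1b, Gpm6a and Muc16. They were chosen by gene symbol, with earlier results of these data known. Of the 10, 9 had a measured feature among the 19337 genes of the table. Muc16, the cell-surface mucin that mesothelin binds, was not analysed here. White fat RNA of C57BL/6J males was hybridised to 1-colour Affymetrix whole-transcript arrays. The mice were bone marrow chimeras: donor marrow had 6 weeks to reconstitute, and a diet drawing 60% of its calories from fat followed for 14 weeks. The deletions lay in the marrow alone for Gipr-/- donors, while most cells of the fat pad belong to the recipient. The 22 arrays comprised epididymal fat pads (epiWAT) with wild-type (WT), Gipr-/- or Gipr-/-S100a9-/- marrow, 4 arrays each, and inguinal subcutaneous fat (ingWAT) with the same kinds of marrow, 4, 3 and 3 arrays. Gipr-/- marrow lacks the receptor of the gut hormone GIP, and Gipr-/-S100a9-/- marrow, called double-knockout marrow below, lacks in addition an alarmin subunit of neutrophils and monocytes. Recipients were WT for WT and Gipr-/- marrow; for double-knockout marrow the sources used here name no recipient. Whether arrays came from separate mice, or both depots from 1 mouse, is not in the labels, and p-values therefore reflect only spread between samples, which may be technical.

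Mesothelium lines the peritoneal cavity and the organs and fat pads within it, and inguinal fat, which lies under the skin, has no such cover. It is an epithelium of mesodermal origin: its cells carry keratins of simple epithelia, make a lubricated surface and keep the transcription factor Wt1 of the lateral plate. Wt1 is also active in progenitors and stroma of visceral fat, and Krt8, Krt18 and Krt19 are general keratins of simple epithelia, including the epididymal duct that runs beside the epididymal pad. In whole tissue, fewer cells of a type and less RNA per cell cannot be told apart.

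Upstream sequences are shown for 2 pairs of genes that varied together, as described further on: Upk3b with Lrrn4, and the keratin partners Krt8 with Krt18. Each is the 250 bases before a listed start of the gene, written 5′ to 3′ on the gene's strand, from RefSeq on GRCm38.p6, whose promoter table holds 6 of the 10 members. Capitals mark matches, on either strand, to GGAATG, the motif of TEAD factors, or to CAGGAAGT, a motif of ETS factors; a match on the opposite strand appears as CATTCC or ACTTCCTG. These motifs were chosen after the sequences had been read, and the capitals do not overlap.
Upk3b, chr5:136038246-136038495, plus strand: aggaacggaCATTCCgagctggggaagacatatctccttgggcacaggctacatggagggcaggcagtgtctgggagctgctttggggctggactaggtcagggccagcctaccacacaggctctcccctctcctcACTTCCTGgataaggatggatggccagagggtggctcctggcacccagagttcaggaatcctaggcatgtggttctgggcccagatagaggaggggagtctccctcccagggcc
Lrrn4, chr2:132880863-132881112, minus strand: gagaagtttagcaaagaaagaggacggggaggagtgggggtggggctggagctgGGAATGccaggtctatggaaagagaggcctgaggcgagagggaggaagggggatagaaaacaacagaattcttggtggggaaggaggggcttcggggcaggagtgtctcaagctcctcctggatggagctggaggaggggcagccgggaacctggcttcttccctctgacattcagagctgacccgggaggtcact
Krt8, chr15:102004343-102004592, minus strand: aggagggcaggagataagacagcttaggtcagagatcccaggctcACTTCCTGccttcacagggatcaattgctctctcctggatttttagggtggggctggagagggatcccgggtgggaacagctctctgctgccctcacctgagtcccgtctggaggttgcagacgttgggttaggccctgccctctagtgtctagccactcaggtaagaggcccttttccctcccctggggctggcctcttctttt
Krt18, chr15:102027966-102028215, plus strand: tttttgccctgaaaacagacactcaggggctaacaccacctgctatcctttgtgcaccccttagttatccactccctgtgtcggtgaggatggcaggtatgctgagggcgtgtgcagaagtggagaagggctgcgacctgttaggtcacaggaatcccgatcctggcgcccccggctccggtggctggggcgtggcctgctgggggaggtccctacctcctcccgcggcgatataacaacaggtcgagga
The TEAD motif stood 241 bases upstream of the start in Upk3b and 196 bases upstream in Lrrn4, and in neither keratin window; 12.6% of the 32851 windows of the same length hold it. The ETS motif stood 114 bases upstream in Upk3b and 205 bases upstream in Krt8, and 2.69% of all windows hold it. The TATA box TATAAA was searched on both strands too and matched none of the 4 windows (12.4% of all windows hold it). The same held for the GC box GGGCGG (32.7% of all windows) and for GCGTGGG, a core shared by EGR and WT1 zinc-finger sites (4.3%). No match says only that these letters are not in this window. Krt8 and Krt18, which pair into 1 filament, lie next to each other on chromosome 15 with 0 protein-coding genes between them.

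Genes of neighbouring organs were high in several epididymal arrays. The mean log2 value of a list of 10 measured genes of epididymis epithelium ran from 4.80 to 10.9 in epiWAT arrays and from 4.01 to 5.30 in ingWAT arrays, and was highest in double knockout 1 of epiWAT. That of 6 testis germ cell genes reached 13.5 in Gipr-/- 1 of epiWAT and stayed between 3.75 and 4.80 in ingWAT. The depot labels held against depot genes: Tbx15, a patterning factor of subcutaneous fat, was between 6.73 and 10.54 in ingWAT and between 3.37 and 5.04 in epiWAT, without overlap. The mean of a list of 5 inguinal depot genes, Tbx15 among them, ran from 5.88 to 7.44 in ingWAT and from 4.03 to 5.34 in epiWAT. Within epiWAT it was highest in Gipr-/- 3.

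All 9 measured genes were higher in epididymal than in inguinal fat. Averaged over the kinds of marrow, the difference of epididymal minus inguinal log2 values had a median of 3.31 over the 9 genes. Each of the 9 passed limma's test at an adjusted p of 0.05, where 7.55% of the 14502 genes tested were called higher in epididymal fat. The group ranges of 4 genes did not overlap between depots (Upk3b, Upk1b, Gpm6a and Wt1), as for 0.221% of all genes tested with the higher values in epididymal fat. Wt1, Msln, Krt18, Krt19 and Lrrn4 had inguinal means below the lowest mean kept by the low-value filter (4.40), so these 5 entered the test only through their epididymal values, and the count is no support by itself. Their differences are taken against low inguinal signals. Without the filter the adjusted p of the 9 genes ran from 3.53e-08 to 0.0114 (limma). The plot of values by group shows every array.

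**Figure D1:**
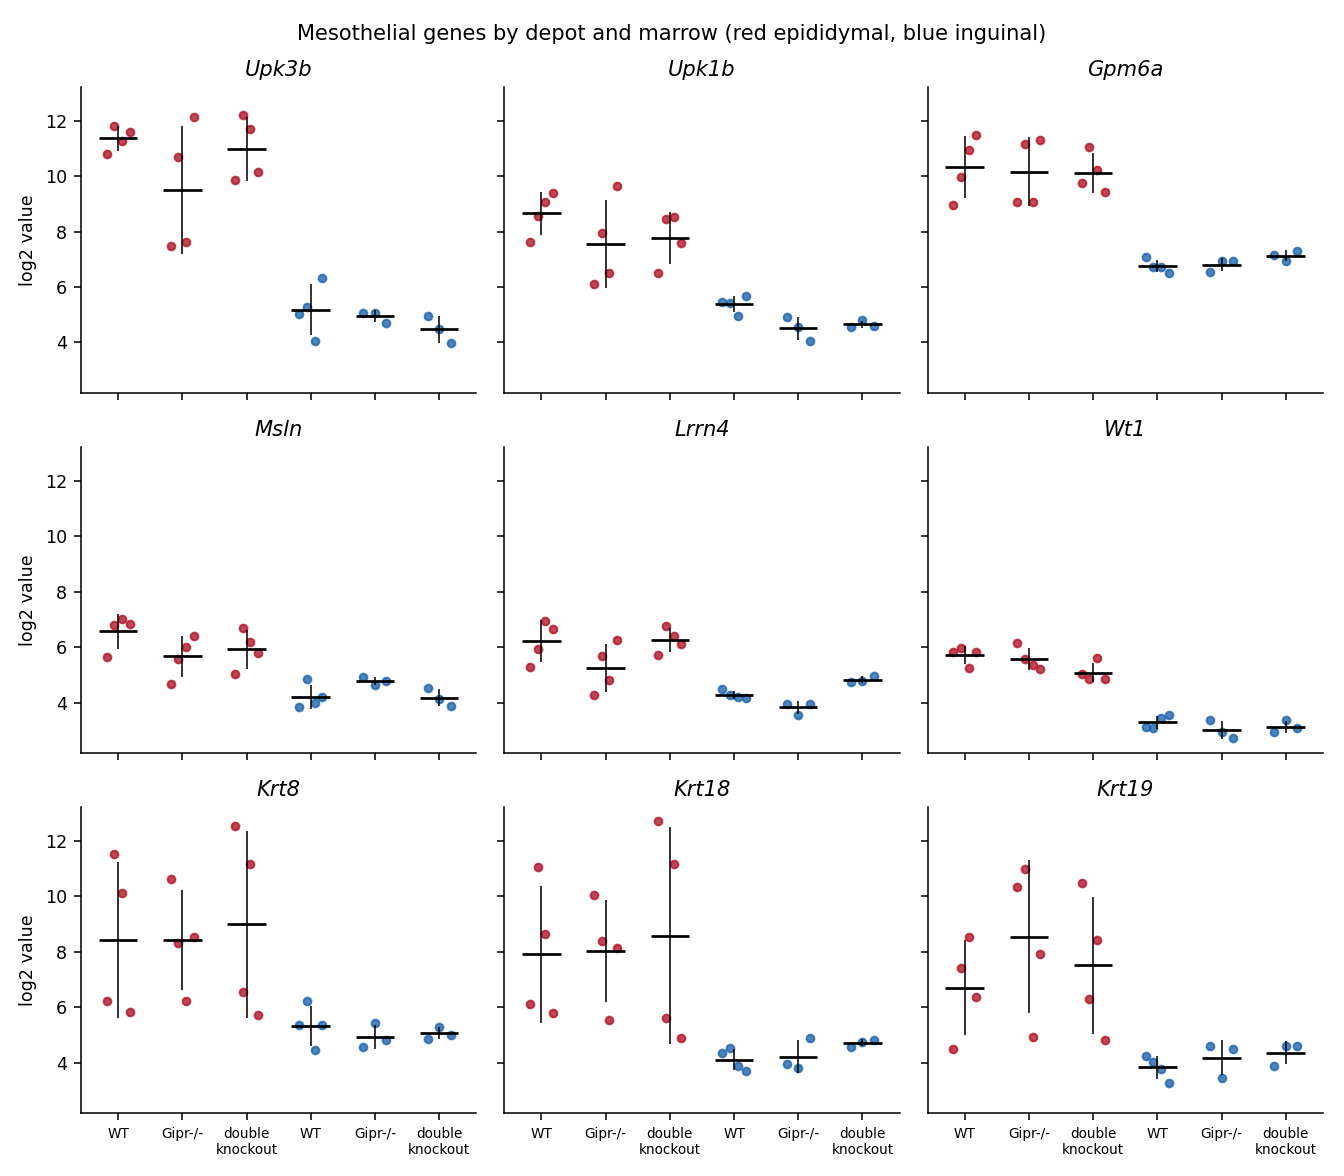
Log2 value (y axis) of each measured mesothelial gene in the 22 arrays, by kind of marrow (x axis), in epididymal (red) and inguinal (blue) fat; points are arrays, thick bars means and thin lines 1 SD. Upk3b lies between 7.48 and 12.2 in epididymal and between 3.99 and 6.31 in inguinal arrays, while Krt8, Krt18 and Krt19 run from inguinal levels up to 12.54, 12.71 and 11 within epididymal fat.

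Upk3b, a uroplakin of the mesothelial surface that is otherwise known from bladder lining, had the largest mean difference of the 9. In epiWAT its log2 value was 10.80, 11.83, 11.26 and 11.59 (WT marrow), 7.48, 10.71, 7.63 and 12.14 (Gipr-/-) and 9.86, 12.21, 11.72 and 10.15 (double knockout). In ingWAT it was 5.04, 5.29, 4.07 and 6.31 (WT marrow), 5.06, 5.07 and 4.71 (Gipr-/-) and 4.95, 4.48 and 3.99 (double knockout). Every epididymal array thus lay above every inguinal array, with the lowest epididymal values in Gipr-/- 1 and 3. The difference averaged over marrow was 5.75 (SE 0.48, limma adjusted p = 6.58e-07). Ordered by mean, the groups ran from epiWAT with WT (11.37 ± 0.45, SD, n = 4) over epiWAT with double-knockout (10.99 ± 1.16, n = 4) and Gipr-/- marrow (9.49 ± 2.31, n = 4) to ingWAT with WT (5.18 ± 0.92, n = 4), Gipr-/- (4.95 ± 0.21, n = 3) and double-knockout marrow (4.47 ± 0.48, n = 3). Neighbours in that order overlapped within a depot, and only the step between the depots left a gap.

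Upk1b, a tetraspanin that forms pairs with Upk3-type uroplakins, was 8 on average in epiWAT (range 6.12 to 9.64) and 4.90 in ingWAT (range 4.05 to 5.66). Its epididymal values were 7.63, 8.57, 9.06 and 9.41 (WT marrow), 6.12, 7.94, 6.53 and 9.64 (Gipr-/-) and 6.52, 8.46, 8.53 and 7.60 (double knockout). Epididymal minus inguinal values gave 3.15 (SE 0.36, limma adjusted p = 2.73e-05). Other uroplakin genes were not called: of the 4 genes listed for urothelium, Upk1a differed by 1.88 (SE 0.85, limma adjusted p = 0.14), and Upk2, Upk3a and Krt20 lay below the low-value filter. Upk3bl, a relative of Upk3b, differed by 0.02 (SE 0.19, limma adjusted p = 0.957). In the epididymal array Gipr-/- 4, which had the highest Upk1b value, Upk1a was 11.1, Upk2 6.47, Upk3a 6.44 and Krt20 6.44. Upk3a was between 3.35 and 4.12 in the other 11 epididymal arrays. The part of urothelial RNA in the uroplakin values of that array was not tested; without it the depot difference in Gipr-/- marrow was 3.66 for Upk3b and 2.36 for Upk1b, against 4.54 and 3.05 with it.

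Gpm6a, a membrane glycoprotein first known from neurons, was 10.21 on average in epiWAT and 6.89 in ingWAT. In epiWAT it was 8.96, 9.97, 10.95 and 11.48 (WT marrow), 9.08, 11.18, 9.08 and 11.30 (Gipr-/-) and 9.76, 11.07, 10.24 and 9.43 (double knockout). The ingWAT values ran from 6.53 to 7.30, below the lowest epididymal value, and the difference was 3.31 (SE 0.32, limma adjusted p = 3.78e-06). Lrrn4, a leucine-rich repeat membrane protein, ran from 4.26 to 6.96 in epiWAT and from 3.55 to 4.97 in ingWAT. It differed by 1.60 (SE 0.23, limma adjusted p = 0.000336, or 0.000415 without the filter) from an inguinal mean of 4.31, below the filter's limit, and only the epididymal arrays Gipr-/- 1 and 3, at 4.26 and 4.82, fell within the inguinal range.

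Msln encodes mesothelin, an anchored surface protein of mesothelial cells. Its epididymal values were 5.64, 6.79, 7.01 and 6.82 (WT marrow), 4.68, 5.56, 6.01 and 6.42 (Gipr-/-) and 5.02, 6.71, 6.17 and 5.79 (double knockout). The ingWAT arrays ran from 3.83 to 4.90, so that 1 epididymal array, Gipr-/- 1, fell within the inguinal range. The difference was 1.67 (SE 0.24, limma adjusted p = 0.000297, or 0.000379 without the filter), from an inguinal mean of 4.37 below the filter's limit.

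Wt1, the zinc-finger factor of the mesothelial lineage, had the smallest p-value between depots of all 14502 genes tested. In epiWAT it was 5.83, 5.96, 5.23 and 5.82 (WT marrow), 6.14, 5.56, 5.35 and 5.22 (Gipr-/-) and 5.04, 4.85, 5.59 and 4.85 (double knockout). In ingWAT it was 3.11, 3.06, 3.43 and 3.56 (WT marrow), 3.38, 2.93 and 2.72 (Gipr-/-) and 2.93, 3.36 and 3.07 (double knockout). The depots did not overlap, although the difference of 2.32 (SE 0.15, limma adjusted p = 4.86e-08) was less than that of Upk3b. Its spread was small: the SD within marrow groups was 0.36 in epiWAT and 0.27 in ingWAT, against 1.51 and 0.67 for Upk3b. With a mean of 4.41 over all arrays Wt1 only just passed the low-value filter, whose lowest kept mean was 4.40, and it did so through its epididymal values; without the filter its adjusted p was 3.53e-08.

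The keratins Krt8, Krt18 and Krt19, which form the filaments of simple epithelia, were higher in epiWAT on average and varied most among its arrays. Krt18 was 6.11, 11.07, 8.63 and 5.81 (WT marrow), 10.03, 8.39, 5.55 and 8.13 (Gipr-/-) and 12.71, 5.602, 11.16 and 4.88 (double knockout), against 3.69 to 4.89 in ingWAT. Krt8 ran from 5.71 to 12.54 in epiWAT and from 4.44 to 6.21 in ingWAT. Krt19 ran from 4.48 to 11 in epiWAT and from 3.26 to 4.61 in ingWAT. Within each kind of marrow some epididymal arrays were thus at or near the inguinal level and others far above it, and for each of the 3 genes the ranges of the 2 depots met. The depot differences were 3.51 for Krt8 (SE 0.82, limma adjusted p = 0.01), 3.83 for Krt18 (SE 0.85, adjusted p = 0.00756) and 3.47 for Krt19 (SE 0.71, adjusted p = 0.00448). The inguinal means of Krt18 (4.32) and Krt19 (4.09) lay below the filter's limit, and without the filter their limma adjusted p was 0.00865 and 0.0053. Within-group SDs in epiWAT were 2.75, 2.88 and 2.36.

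Beside the keratins, genes of the epididymal duct were measured. Without the 4 epididymal arrays highest in the epididymis list (WT 1 and 2, double knockout 1 and 3), an alternative added after seeing the data, the averaged depot difference was 2.41 for Krt8, 2.48 for Krt18 and 3.07 for Krt19. All 3 still passed (limma adjusted p = 0.0224, 0.00843 and 0.0117). In double-knockout marrow the same step took Krt8 from 3.93 to 1.07, Krt18 from 3.87 to 0.53 and Krt19 from 3.15 to 1.19 (limma adjusted p = 0.686, 0.841 and 0.696). With WT marrow the same step kept epididymal arrays 3 and 4. It took Krt8 from 3.10 to 2.64, Krt18 from 3.79 to 3.11 and Krt19 from 2.88 to 3.64 (limma adjusted p = 0.277, 0.141 and 0.176). No array with Gipr-/- marrow was left out, so the differences there stayed at 3.505 for Krt8, 3.81 for Krt18 and 4.37 for Krt19. All 3 then passed (limma adjusted p = 0.0497, 0.0216 and 0.035), on the spread that the groups share in 1 fit. The SE went from 1.45 to 0.89 for Krt8, 1.51 to 0.77 for Krt18 and 1.25 to 1.02 for Krt19. Of all 14502 genes 157 were called higher in that comparison, against 37 with every array. The other genes held their differences without these 4 arrays: Upk3b was at 5.83, Upk1b at 3.43, Gpm6a at 3.64, Msln at 1.89 and Lrrn4 at 1.86. Wt1 was not tested there because its mean fell below the filter.

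Within single kinds of marrow fewer genes passed. With WT marrow 6 of the 9 genes were called higher in epiWAT, against 0.945% of all genes tested: Upk3b, Wt1, Msln, Lrrn4, Upk1b and Gpm6a. With Gipr-/- marrow 4 were called (Upk3b, Wt1, Upk1b and Gpm6a; 0.255% of all genes), and with double-knockout marrow 5 (the same and Msln; 2.21% of all genes). Within a kind of marrow the depots did not overlap for 8 of the 9 genes with WT (7.27% of all genes tested), 8 with Gipr-/- (7.59%) and 9 with double-knockout marrow (8.95%). None of the keratins was called in a single kind of marrow, with differences between 2.88 and 4.37 (limma adjusted p from 0.114 to 0.259). Beside the calls without the 4 arrays above, Krt19 was called with Gipr-/- marrow with array weights (limma adjusted p = 0.0309) and without epiWAT Gipr-/- 3 (adjusted p = 0.0215). With double-knockout marrow Krt8 and Krt18 were called without epiWAT double knockout 4 (limma adjusted p = 0.0433 and 0.0439). In these settings 329 and 78 of all 14502 genes were called higher with Gipr-/- marrow, and 500 with double-knockout marrow. The count with Gipr-/- marrow was 2 without ingWAT Gipr-/- 1, 1 without ingWAT Gipr-/- 2 or 3 and 0 without epiWAT Gipr-/- 2 or 4. Of all 14502 genes 16, 1, 2, 1 and 0 were called higher in these settings, in that order, against 37 with every array. The count with double-knockout marrow was 3 without ingWAT double knockout 1 or epiWAT double knockout 2 or 3. Of all genes 55, 255 and 122 were called higher there, in that order, against 320 with every array. When only the 2 groups compared entered the fit, the counts were 0 with Gipr-/- and 1 with double-knockout marrow. In those fits 3 and 8 of all 14502 genes were called higher, so the calls fell over all genes too.

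**Figure D2:**
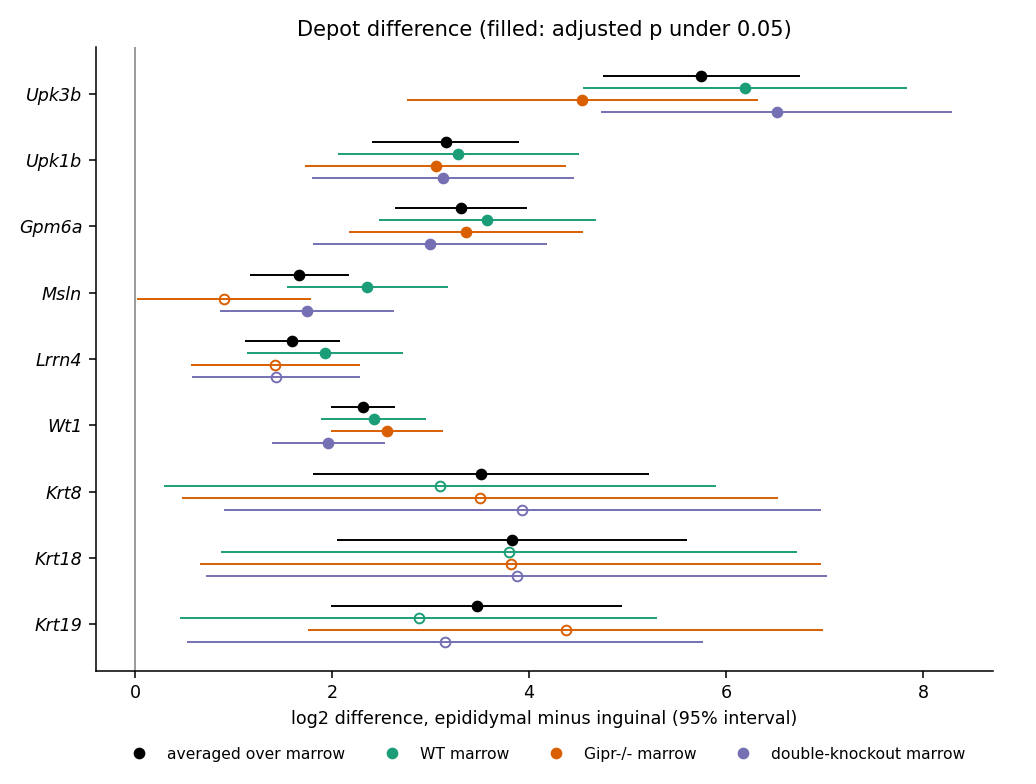
Log2 difference of epididymal minus inguinal fat (x axis) for each gene (y axis), averaged over marrow and for each kind of marrow; lines are 95% intervals, and filled points passed the test. All averaged differences lie between 1.60 and 5.75, and the keratins have the widest intervals.

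Other genes of the mesothelium followed in part. Of a list of 22, 19 were measured and 17 tested. Of the 17, 8 were higher in epiWAT, against 7.55% of all genes tested, and 1 lower, against 5.4%. The median difference was 1.62 over the 17 tested and 1.085 over the 19 measured. Higher were Pdpn, the membrane mucin podoplanin (1.88, SE 0.23, limma adjusted p = 4.66e-05), Nkain4 (2.30, adjusted p = 8.66e-05), Aldh1a2, which makes retinoic acid (1.64, adjusted p = 0.000189), Pkhd1l1 (2.93, adjusted p = 0.00023) and Myrf, a membrane-bound transcription factor (1.80, adjusted p = 0.000474). Krt7, a further simple keratin, was at 2.71 (adjusted p = 0.00269). Rspo1, a Wnt-pathway ligand, was at 1.89 (adjusted p = 0.00208) and Ildr2 at 1.62 (adjusted p = 0.00564). Lower in epiWAT was the claudin Cldn15 (-1.35, SE 0.34, limma adjusted p = 0.0164), and Tbx18 was at -0.05 (adjusted p = 0.931). Not past the threshold were Bnc1, a zinc-finger gene of mesothelium (0.01, adjusted p = 0.973), and Prg4, the lubricin gene (0.21, adjusted p = 0.831), and Calb2 lay below the filter. Krt7 is also in the simple epithelium list, and Tbx18 among the partners of Wt1.

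Of factors that work beside Wt1 in visceral mesoderm 1 of 6 tested was called, near the 12.9% of all genes called in either direction. Tcf21, a factor of visceral stroma and fat progenitors, was 7.06 in epiWAT and 4.30 in ingWAT (difference 2.76, SE 0.35, limma adjusted p = 8.9e-05). Its inguinal mean lay below the lowest mean kept by the low-value filter (4.40), so Tcf21 entered the test only through its epididymal values. Gata4 was at 0.05 (adjusted p = 0.901) and Gata6 at 0.37 (adjusted p = 0.115). Among all 49 keratin genes, 29 were tested, and the 4 higher in epiWAT were Krt7, Krt8, Krt18 and Krt19. The 5 lower in epiWAT were Krt1, Krt10, Krt40, Krt77 and Krt79, of which Krt10, a keratin of outer skin layers, differed by -3.18 (SE 0.76, limma adjusted p = 0.0115). Krt1 and Krt77, with epididymal means of 3.59 and 3.51 below the filter's limit, entered the test only through their inguinal values. Over all genes tested 7.55% were higher and 5.4% lower.

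Lists of other tissues were counted beside these genes, against 7.55% of all genes called higher. Of the epididymis epithelium list 4 of 7 tested genes were higher in epiWAT, of the simple epithelium list 4 of 8, of the testis germ cell list 1 of 4 and of the macrophage list 5 of 6, and of the adipocyte list 0 of 7. Of the adipose progenitor list 2 of 6 were higher and 1 lower, and of the endothelium list 0 of 5 were called. Of the skin and gland list 3 of 7 were lower in epiWAT, against 5.4% of all genes. In the inguinal arrays alone 4 genes of the epididymis list, 6 of the simple epithelium list and 2 of the testis list passed the low-value filter. In the epididymal arrays alone 5 of the skin and gland list passed it. Some genes of these lists thus entered the depot test only through the depot where they are high. Their counts are no support by themselves. Krt17 of the skin and gland list lay below the filter and was not tested between depots. It was between 2.62 and 3.41 in epiWAT, and in ingWAT its mean was 4.91 and its highest value 10.59. The part of these tissues in the depot differences was not tested beyond the arrays left out above.

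Among the 12 epididymal arrays the members fell into blocks. Upk3b, Upk1b, Msln, Lrrn4 and Gpm6a varied together: after group means were taken off, their 10 pairwise Pearson correlations ran from 0.646 to 0.924. Krt8, Krt18 and Krt19 varied together as well, with 3 correlations from 0.806 to 0.983. Between the keratins and the other 5 genes the 15 correlations ran from -0.308 to 0.314, with a median of -0.0429, and Wt1 correlated with the 8 other genes at -0.552 to 0.459. All correlations here are over 12 arrays that share the same array scale, and the pairwise ones are given as a description.

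**Figure D3:**
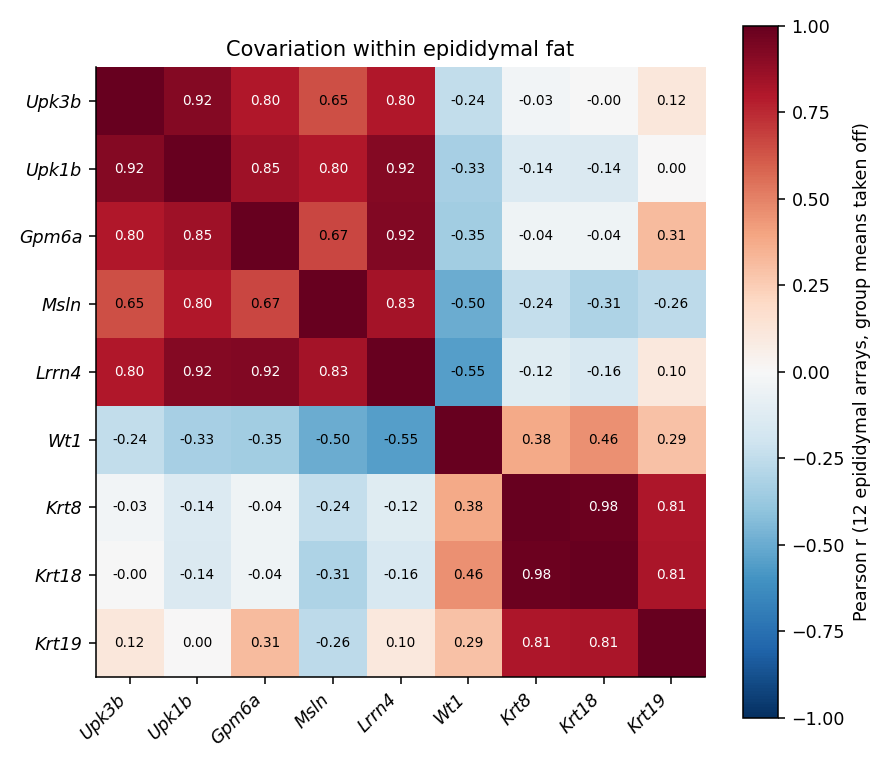
Pearson r between pairs of genes (both axes) over the 12 epididymal arrays, after the mean of each marrow group was taken off; red is positive and blue negative. The first 5 genes form a block from 0.646 to 0.924 and the keratins another from 0.806 to 0.983, with values from -0.308 to 0.314 between them.

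The covariation was tested for 26 relations by exact two-sided permutation within marrow groups (13824 arrangements), with Benjamini-Hochberg adjustment over the 26. With Upk3b, Upk1b correlated at r = 0.915 (exact permutation p = 0.00137, adjusted p = 0.0119; rho = 0.846, p = 0.00564, adjusted p = 0.047). Gpm6a had r = 0.803 with Upk3b (exact permutation p = 0.00861, adjusted p = 0.0373; rho = 0.776, p = 0.0129, adjusted p = 0.0481), and Lrrn4 r = 0.802 (exact permutation p = 0.00579, adjusted p = 0.0301; rho = 0.776, p = 0.00781, adjusted p = 0.047). Without the 2 arrays farthest from the median of Upk3b, Gipr-/- 1 and 4, r was 0.818 for Upk1b, 0.746 for Gpm6a and 0.636 for Lrrn4. Msln had r = 0.646 (exact permutation p = 0.0461, adjusted p = 0.133; rho = 0.615, p = 0.0958, adjusted p = 0.249), and 0.418 without those 2 arrays. Wt1 (r = -0.245, exact permutation adjusted p = 0.776; rho = -0.217, adjusted p = 0.744) and the 3 keratins (r from -0.0254 to 0.116, rho from -0.112 to 0.049, adjusted p from 0.924 to 0.998) did not pass the threshold with Upk3b.

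The keratins instead ran with genes of other simple epithelia. They were set against the mean of 8 genes of the simple epithelium list, which includes the adhesion molecules Epcam and Cdh1. This comparison was not among those planned, and Krt7 was left out after seeing the data, so its p-values are a description. Krt18 had r = 0.984 with that mean (exact permutation p = 0.000145, adjusted p = 0.00376, and rho = 0.979, p = 0.000217, adjusted p = 0.00564). Krt8 had r = 0.965 (exact permutation p = 0.000434, adjusted p = 0.00564; rho = 0.923, p = 0.00195, adjusted p = 0.0254) and Krt19 r = 0.817 (exact permutation p = 0.00506, adjusted p = 0.0301; rho = 0.79, p = 0.0109, adjusted p = 0.047). Without WT 2 and double knockout 1, the 2 arrays farthest from the median, r was 0.983, 0.947 and 0.844. Upk3b, Upk1b, Gpm6a, Msln and Lrrn4 had r between -0.297 and 0.000817 with the same list (rho from -0.308 to 0.035, exact permutation adjusted p from 0.595 to 0.998). Wt1 had r = 0.515 with it (exact permutation p = 0.117, adjusted p = 0.253; rho = 0.517, p = 0.107, adjusted p = 0.254), and 0.573 without the same 2 arrays.

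Against the epididymis list, Krt18 had r = 0.769 (exact permutation p = 0.0132, adjusted p = 0.0489; rho = 0.734, p = 0.0281, adjusted p = 0.0915) and Krt8 r = 0.709 (exact permutation p = 0.0365, adjusted p = 0.119; rho = 0.818, p = 0.0109, adjusted p = 0.047). Without double knockout 1 and 4, r fell to 0.562 and 0.503. Krt19 had r = 0.496 with that list (exact permutation p = 0.139, adjusted p = 0.277; rho = 0.336, p = 0.325, adjusted p = 0.529), and 0.0436 without the same 2 arrays, so this value rested on them. Wt1 had r = 0.357 (rho = 0.503), Upk3b -0.159 (rho = -0.189), Gpm6a -0.285 (rho = -0.364), Upk1b -0.402 (rho = -0.441), Lrrn4 -0.451 (rho = -0.573) and Msln -0.525 (rho = -0.441), with exact permutation p from 0.0569 to 0.614 and adjusted p from 0.164 to 0.776.

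**Figure D4:**
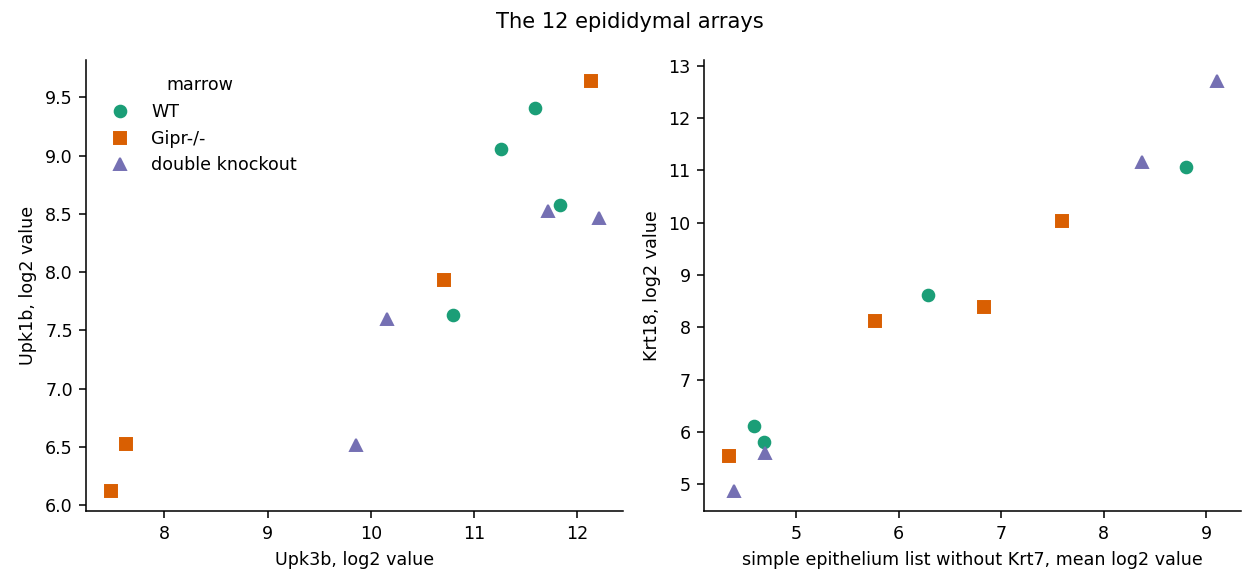
The 12 epididymal arrays by kind of marrow: Upk1b against Upk3b (left, log2 values on both axes), and Krt18 (y axis, log2 value) against the mean log2 value of 8 simple epithelium genes (right, x axis). Upk1b rises with Upk3b, with Gipr-/- 1 and 3 lowest in Upk3b and Gipr-/- 1 (6.12), double knockout 1 (6.52) and Gipr-/- 3 (6.53) lowest in Upk1b, and Krt18 rises with the epithelial genes from 4.88 to 12.71.

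The genes most like Upk3b over the 12 epididymal arrays, by Pearson r among 14493 genes that are no members, were Hmbox1 (0.958), Specc1l (0.937), Pip5k1c (0.920), 2310061I04Rik (0.917), F8 (0.897), Wnt2b (0.891), Hoxa3 (0.887), Tns2 (0.882), Cd209a (0.881) and Pkhd1l1 (0.872). Of these, Wnt2b (0.97, limma adjusted p = 0.00912), Cd209a (0.73, adjusted p = 0.0217) and Pkhd1l1 were also higher in epiWAT. The rest were not called between depots (limma adjusted p from 0.102 to 0.986). Here and in the next ranking the genes are the highest of 14493 correlations over 12 arrays. How high r would run by chance among so many genes was not tested. The mean of the 9 members mixes the blocks described above, and the keratins, which vary most, weigh most in it. Most like this mean was Aldh1a2 (r = 0.960), which lay between 7.35 and 8.20 in epiWAT and between 5.29 and 7.02 in ingWAT. Then came Rchy1 (0.951), Agrn (0.931), Ubac2 (0.926), Serinc2 (0.922), Chchd10 (0.919), Kazn (0.917), Spin1 (0.917), Pcgf2 (0.914) and Npnt (0.914), of which Kazn differed between depots (1.41, limma adjusted p = 0.0131).

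Between kinds of marrow none of the 9 genes passed the test in epididymal fat. For Gipr-/- minus WT marrow limma called 0 of the 9 and 0% of the 14502 genes tested, with 0 of the 9 at an unadjusted p under 0.05 against 1052 of all genes. Upk3b differed by -1.88 (95% interval -3.94 to 0.17, limma adjusted p = 0.708), Upk1b by -1.11 (-2.70 to 0.48, adjusted p = 0.796), Lrrn4 by -0.97 (-1.99 to 0.05, adjusted p = 0.705) and Msln by -0.90 (-1.90 to 0.10, adjusted p = 0.713). The 2 groups overlapped for each of the 9, and for Upk3b Gipr-/- 4 lay above every WT array, Gipr-/- 2 just below the lowest of them and Gipr-/- 1 and 3 far below. Groups that do not overlap were found for 5.04% of all genes tested. Gpm6a differed by -0.18 (adjusted p = 0.973), Wt1 by -0.14 (adjusted p = 0.94), Krt8 by 0.00 (adjusted p = 1), Krt18 by 0.12 (adjusted p = 0.995) and Krt19 by 1.84 (adjusted p = 0.851). The array Gipr-/- 1 also had the highest testis germ cell level, at 13.5, while Gipr-/- 3 was at 4.23, and the part of that RNA in these values was not tested. Gipr-/- 3 had the highest mean of the inguinal depot list (5.34) and of the macrophage list (11.97) among the epididymal arrays. The part of these in its low values was not tested either.

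In the list of other mesothelial genes 0 of 17 passed as well, and the median of the 17 tested was -0.28. The smallest p-values belonged to Nkain4 (-1.67, SE 0.43, limma adjusted p = 0.483), Ildr2 (-1.49, adjusted p = 0.638) and Pdpn (-1.04, adjusted p = 0.65). All 4 Gipr-/- arrays lay below all 4 WT arrays for these 3, as for 2.75% of all genes tested.

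With the loss of S100a9 added, limma called 0 of the 9 genes and again 0% of all genes tested; 0 of the 9 and 1555 of all genes were at an unadjusted p under 0.05. Groups without overlap made up 6.05% of all genes tested and 0 of the 9. Double knockout minus Gipr-/- marrow was 1.496 for Upk3b (95% interval -0.56 to 3.55, limma adjusted p = 0.59), 1.01 for Lrrn4 (-0.01 to 2.03, adjusted p = 0.472) and -0.48 for Wt1 (-1.08 to 0.12, adjusted p = 0.55). The remaining 6 lay between -1.04 (Krt19) and 0.56 (Krt18), with adjusted p from 0.822 to 0.989. This comparison and the one before share the Gipr-/- arrays, so opposite signs in them are no separate support. Nkain4 (1.18, adjusted p = 0.36), Bnc1 (0.88, adjusted p = 0.369) and Ildr2 (1.14, adjusted p = 0.495) had the smallest p of the other mesothelial genes, of which 0 of 17 passed.

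Double knockout minus WT marrow called 0 of the 9 and 0% of all genes tested, with 1 of the 9 and 444 of all genes at an unadjusted p under 0.05. Groups without overlap made up 2.32% of all genes tested and 0 of the 9. That gene was Wt1, at -0.63 (95% interval -1.23 to -0.03, limma adjusted p = 0.999); 1 of the 4 double-knockout arrays, at 5.59, lay within the WT range. Msln was at -0.64, Upk1b at -0.89, Upk3b at -0.38, Gpm6a at -0.21, Lrrn4 at 0.04 and the keratins at 0.56 to 0.80 (adjusted p = 0.999 for each). Of the 17 other mesothelial genes 0 passed, and Cd200 (-0.78), Pdpn (-0.89) and Pkhd1l1 (-1.24) had the smallest p (adjusted p = 0.999 for each). The intervals of the keratins were the widest of the 9 in each of the 3 marrow comparisons (Krt18 from -3.20 to 4.57 here), so differences of several-fold were not detectable.

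**Figure D5:**
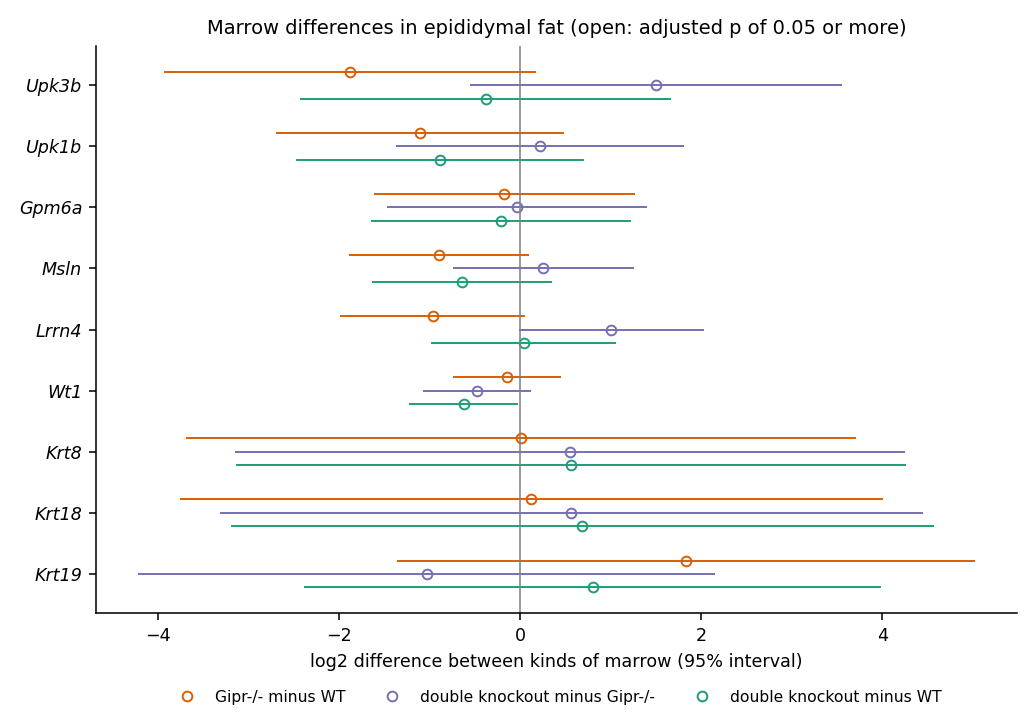
Log2 difference between kinds of marrow in epididymal fat (x axis) for each gene (y axis), with 95% intervals, for the 3 pairs of marrow; no point passed the test. Upk3b has the widest interval among genes other than the keratins, and Wt1 the narrowest.

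In inguinal fat, where these genes are low, only Upk3b, Krt8, Upk1b and Gpm6a passed the low-value filter, and 0 of these 4 were called in any marrow comparison. For Gipr-/- minus WT marrow 0.234% of all genes were called, for double knockout minus Gipr-/- marrow 3.48% and for double knockout minus WT marrow 0%. Upk1b was 5.46, 5.43, 4.97 and 5.66 (WT marrow), 4.92, 4.54 and 4.05 (Gipr-/-) and 4.55, 4.80 and 4.61 (double knockout). Each WT array thus lay above all others, as for 5.15% of genes tested against Gipr-/- and 5.91% against double-knockout marrow. The differences were -0.88 for Gipr-/- minus WT (limma adjusted p = 0.172) and -0.73 for double knockout minus WT (limma adjusted p = 0.29).

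Of the 5 genes below the filter, Lrrn4 was 4.49, 4.27, 4.21 and 4.17 (WT marrow), 3.95, 3.55 and 3.96 (Gipr-/-) and 4.72, 4.76 and 4.97 (double knockout) in ingWAT. The 3 groups did not overlap; among genes tested, double-knockout arrays lay above all Gipr-/- arrays for 8.35% and above all WT arrays for 5.08%. Without the filter double knockout minus Gipr-/- was 1.001 for Lrrn4 (SE 0.25, limma adjusted p = 0.0623). Krt18 also lay above all WT arrays in double-knockout arrays (difference 0.60, limma adjusted p = 0.516 without the filter). Msln lay below all Gipr-/- arrays in double-knockout arrays (-0.59, limma adjusted p = 0.411 without the filter). Upk3b, Krt8 and Gpm6a had differences from -0.70 to 0.37 over the 3 comparisons (limma adjusted p from 0.548 to 0.962).

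Whether the marrow differences depended on the depot was tested by an interaction term, the epididymal difference minus the inguinal difference, and 0 of the 9 genes passed in any of the 3 terms. For Gipr-/- minus WT 0% of all genes were called, and Msln was at -1.46 (SE 0.58, limma adjusted p = 0.546) and Upk3b at -1.65 (SE 1.16, adjusted p = 0.781). For double knockout minus Gipr-/- 0.717% of all genes were called, and Upk3b was at 1.97 (SE 1.21, adjusted p = 0.506). For double knockout minus WT 0% were called, and the 9 genes ran from -0.61 (Msln) to 0.84 (Krt8), with adjusted p from 0.83 to 0.998.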

How the data were processed

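The authors deposited 1 table of 21793 features with values taken here as log2; they run from 1.92 to 19.9, and the log base and scaling are not given in the sources used here. Partek 6.6 is named in the submitters' processing notes, without its role. The platform annotation names 19341 features; for 4 genes with 2 features the brighter was kept, which left 19337 genes. Arrays within a group correlated at 0.907 to 0.984, with 0 identical pairs; arrays carry no read depth, and their number limits the precision.

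Groups came from the labels, and arrays are numbered in accession order, which pairs nothing. Depot and interaction contrasts came from 1 fit of all 22 arrays, marrow contrasts from a fit of each depot, with limma 3.58.1 (lmFit, eBayes with a trend) in R 4.3.3. A filter removed the 25% of genes lowest by mean over the fitted arrays; p-values are two-sided and adjusted by Benjamini-Hochberg over 14502 genes, with a threshold of 0.05. All members were named, and of the other mesothelial genes the 5 smallest p between depots in each direction and the 3 smallest p between kinds of marrow, and the 10 genes most like Upk3b or the members' mean; any gene of the marker lists could be named too, and those singled out were picked with values known. Members and lists were chosen with earlier results of these data known. The fit was tested on simulated data. Alternatives are under the closing section.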

Additional observations from a re-analysis of the deposited data

Results flagged for a closer look

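Among 52 sets of a gene (members and urothelium list) in a group of 4 arrays, 4 held a value far from the other 3; chance flags about 1 in 20. Msln was 5.64 in WT 1 of epiWAT, below the other WT arrays at 6.79 to 7.01. Upk1a was 11.05 in WT 2 of epiWAT, against 4.65 to 5.05 in the other WT arrays, and that array was also high in the epididymis list (7.82). Upk3a was 6.44 in Gipr-/- 4 of epiWAT, against 4.01 to 4.12 in the other Gipr-/- arrays. Krt20 was 5.28 in WT 1 of epiWAT, against 3.95 to 4.06 in the other WT arrays.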

How the results depend on the processing

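Averaged over marrow, the depot difference of the 9 genes passed in all 256 gene values recomputed (highest adjusted p = 0.0232), and the count was 8 to 9 without single arrays; it was 8 where Wt1 fell below the low-value filter, which happened in 14 settings. With Gipr-/- marrow the count of 4 became 0 when only the compared arrays were fitted and 7 with array weights, and it ran from 0 to 4 without single arrays. Of all 14502 genes 37 were called higher in the main fit, 3 with only the compared arrays and 329 with array weights. Without single arrays 0 to 97 of all genes were called higher. With double-knockout marrow the count of 5 became 1 when only the compared arrays were fitted and ran from 3 to 6 without single arrays. Of all genes 320 were called higher in the main fit, 8 with only the compared arrays and 55 to 500 without single arrays. With WT marrow the count ran from 4 to 6 without single arrays. There 40 to 195 of all genes were called higher, against 137 in the main fit. Fewer arrays enter the fits of compared or left-out arrays. Why the counts moved was not tested for any alternative. In marrow and interaction comparisons 0 of the member genes were called under any alternative, including the epididymis score as a covariate in epididymal fat. The number called among all 14502 genes did move. With that covariate it went from 0 to 45 for Gipr-/- minus WT marrow in epiWAT. With array weights it went from 505 to 1797 for double knockout minus Gipr-/- marrow in ingWAT. Of 2604 gene values under an alternative, 134 changed sign, all of them past the threshold in neither setting. No paired analysis was possible because the labels give no replicate numbers shared between groups. Low signal limits the inguinal comparisons, where 5 of the 9 genes lay below the filter.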

Other observations

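The inguinal array WT 4 had the highest Upk3b of its depot (6.31) and, beside it, the highest Prg4 (10.01), Lcn5 (7.88) and Adam7 (5.39) of the inguinal arrays. The next highest inguinal values were 9.18 for Prg4, 6.02 for Lcn5 and 4.13 for Adam7. Lcn5 and Adam7 are genes of the epididymal duct; the part of epididymal RNA in that array was not tested.

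Other mesothelial genes in inguinal fat were not called between kinds of marrow, 0 of 17 in each comparison. The smallest p-values were those of Sulf1 (1.52, limma adjusted p = 0.0701), Ezr (0.93, adjusted p = 0.321) and Cldn15 (0.55, adjusted p = 0.402) for Gipr-/- minus WT. For double knockout minus Gipr-/- they were those of Upk3bl (-0.82, limma adjusted p = 0.199), Cldn15 (-0.77, adjusted p = 0.2) and Prg4 (-1.86, adjusted p = 0.234). For double knockout minus WT they were those of Ezr (1.95, limma adjusted p = 0.0967), Pdpn (-0.94, adjusted p = 0.215) and Sulf1 (0.76, adjusted p = 0.36).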
